A study of Drosophila melanogaster with 6 samples.

Results

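The proteasome genes of Drosophila melanogaster were examined in ovaries of bam mutants and of stwl bam double mutants. A gene was a member if its current symbol began with Prosalpha, Prosbeta, Rpn and a digit, or Rpt and a digit. Members whose symbol ends in T, T1, T2, R, R1 or R2 were taken as paralogues and the others as general subunits. The RefSeq gene table held 48 such genes. Of these, 40 had a probe set of their own among the 11982 genes that do on the array, namely 26 general subunits and 14 paralogues, each with 1 probe set. Prosalpha1 and Prosalpha1R share 1 probe set and were given no value, and Prosbeta1, Rpn9, Rpn10, Rpt1, Rpt6 and Rpt6R had no named probe set and were not analysed here.

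The proteasome is the protease that degrades proteins marked with ubiquitin. Its core particle is a barrel of alpha rings, which form the gate, around beta rings, which carry the protease sites. A regulatory particle caps the barrel. Its base unfolds substrates with the Rpt ATPases, held by the large scaffold proteins Rpn1 and Rpn2, and its lid removes ubiquitin. In Drosophila males, several subunits have a second gene copy that is used in the testis during sperm formation, which is why these paralogues are set apart from the general genes.

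Transcripts were measured on 6 one-colour arrays with biotin-labelled total RNA, 3 arrays per genotype. The bam samples carried bam[delta86]. Without bam, daughters of germline stem cells do not differentiate, and mutant ovaries fill with undifferentiated germ cells. The double mutants also lacked stwl, which encodes a DNA-associated protein that stem cells need to be maintained, and the labels name no stwl allele. The flies had cornmeal molasses food with dry yeast. The labels give no ages and do not say whether the 3 samples of a genotype were dissected apart, so each p-value may reflect technical spread alone. The probe set of stwl, at 6.48 in bam and 6.17 in stwl bam, did not pass (limma adjusted p = 0.396), and that of bam rose by 1.29 in stwl bam. What either allele does to the stretch covered by its probe set is not stated, so neither value checks the labels.

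Levels are given as log2 of the quantile-normalized intensity plus an offset of 7.9, and a change is the mean of stwl bam minus the mean of bam on that scale. Background was the 95th percentile of 44 control probe sets per array and lay between 13.5 and 38.8 in intensity. Of 9 germ cell marker genes, all were above background on all 6 arrays, among them vas, aub and piwi. In limma 3 of the 9 rose and 2 fell (55.6% called): bam, tud (0.62) and piwi (0.40) were higher, and ovo (-0.84) and otu (-0.67) lower. The 9 included bam and stwl, whose values may depend on the mutant alleles themselves. The summed intensity of the 9 was 9545 to 10536 in bam and 9905 to 11468 in stwl bam. The 5' over 3' signal of control transcripts, a sign of RNA integrity or labelling, was lower in bam. For actin it was 0.149 ± 0.0299 against 0.606 ± 0.0767 in stwl bam (SD, n = 3). The eIF-4a ratio averaged 0.0937 ± 0.014 in bam and 0.429 ± 0.0166 in stwl bam, and the GAPDH ratio 0.138 ± 0.0139 and 0.335 ± 0.0667. No control overlapped between genotypes, and the exact two-sided permutation p was 0.1 for each, the smallest that 3 against 3 can give. This difference and the genotype cannot be told apart, and it stands beside every change below. Marker genes of other cells were called at differing shares, beside 24.1% of all 8764 genes tested. The shares were 62.5% for fat body, 63.6% for haemocyte, 53.8% for muscle and 11.1% for follicle cell and yolk markers. Among fat body markers 4 of 8 tested rose and 1 fell, and their summed intensity was 1416 to 2352 in bam and 5190 to 8507 in stwl bam. Tsf1, apolpp, Obp99c and Drs were the 4 that rose, and the other 4 were below 0. These were NLaz (-0.93), which passed, and Lsp2 (-0.52), Fbp1 (-0.56) and Fbp2 (-0.35), which did not. Among haemocyte markers 7 of 11 fell, with sums of 7546 to 8830 in bam and 4777 to 5734 in stwl bam. Among muscle markers 6 of 13 rose and 1 fell, with sums of 23537 to 32558 and 30679 to 42849. Among follicle cell and yolk markers 1 of 9 fell, and the sums were 31197 to 38982 in bam and 9065 to 50625 in stwl bam, with stwl bam replicate 2 at the top and the others at 9065 and 12700. Without that array 3 general subunits were called higher and 5 lower, and no paralogue was called in either direction. The part of these cells in the proteasome values was not tested. In such whole-tissue samples, fewer cells of a type and less RNA per cell cannot be told apart.

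The general subunits were expressed in both genotypes and changed little. All 26 were above background on all 6 arrays, with deposited intensities between 838.4 and 4614. In limma 4 rose and 4 fell in stwl bam, which is 30.8% of the 26, beside 24.1% of all 8764 genes tested (11.1% higher and 13% lower). The sizes were small: no called change reached 2-fold, and the largest was 1.69-fold. The median change of the 26 was 0.09, and that of all tested genes was -0.04. The 95% intervals of all 26 changes lay between -0.95 and 0.74. For the 18 that did not pass, the intervals lay between -0.45 and 0.54. The median SE was 0.08 for the general subunits and 0.16 for all tested genes. For 16 of the 26 every stwl bam array lay on one side of every bam array, 10 of them higher, and the same held for 42.7% of all tested genes. Probe sets of 5 members (Prosbeta5, Prosbeta7, Rpn6, Rpn12R and Rpn13) carry an identifier that marks probes shared by several transcripts, so their values may include another transcript.

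**Figure D1:**
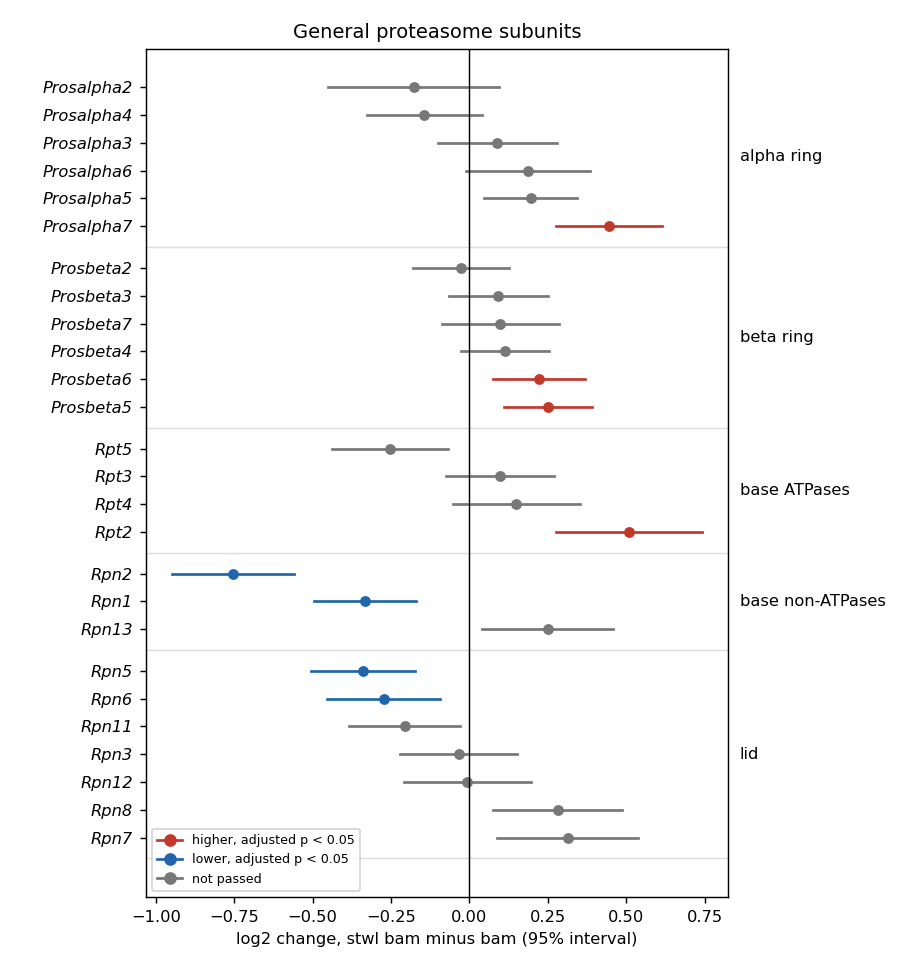
Change of the 26 general proteasome subunits, stwl bam minus bam, in log2 units on the horizontal axis, grouped by subcomplex. Points are limma estimates from 3 arrays per genotype, and lines are 95% intervals. The 4 higher genes are 2 beta ring subunits, 1 alpha ring subunit and the ATPase Rpt2, and the 4 lower genes are Rpn1, Rpn2, Rpn5 and Rpn6.

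In the core particle, 3 of the 12 subunits measured rose and 9 did not pass in limma, with 4 at an unadjusted p under 0.05. That is 25% called, close to the 24.1% of all tested genes. Without pooling of variance across genes, Prosalpha7, Prosbeta5 and Prosbeta6 kept their calls. Among the other called members, Rpn1, Rpn2 and the paralogue Prosbeta2R2 also kept theirs, while Rpt2, Rpn5, Rpn6 and Rpt4R lost theirs. Prosalpha7, a subunit of the alpha ring, was at 11.15, 11.26 and 11.27 on the bam arrays and at 11.57, 11.69 and 11.76 on the stwl bam arrays. All stwl bam arrays were above all bam arrays. Its mean went from 11.23 ± 0.07 to 11.67 ± 0.09 (SD, n = 3). The rise of 0.44 ± 0.07 (SE) had a limma adjusted p of 0.00461 and stayed past the threshold when any single array was left out (adjusted p from 0.00309 to 0.0251 in limma).

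Prosbeta5 carries the chymotrypsin-like protease site. Its levels were 11.68, 11.72 and 11.62 in bam and 11.92, 11.94 and 11.90 in stwl bam, again without overlap. It rose by 0.25 ± 0.06 (SE, limma adjusted p = 0.020). Prosbeta6, a beta subunit without a protease site of its own, was at 11.30, 11.35 and 11.30 in bam and at 11.58, 11.56 and 11.47 in stwl bam. It rose by 0.22 ± 0.06 (limma adjusted p = 0.0398). The linear folds were 1.19 and 1.17, and within each genotype the arrays lay close together. The call of Prosbeta5 was lost on leaving out 1 of 3 arrays, namely replicates 1 and 3 of bam and replicate 3 of stwl bam (limma adjusted p from 0.0548 to 0.0638), and that of Prosbeta6 without any single array (0.0633 to 0.115).

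The other core subunits did not pass. Prosbeta2, which carries the trypsin-like site, was at -0.03, with an interval from -0.18 to 0.13. Prosalpha5, at 0.19, did not overlap between genotypes, and its limma adjusted p was 0.0629. Prosalpha6 (0.19) and Prosbeta4 (0.11) did not overlap either. Prosalpha2 (-0.18) and Prosalpha4 (-0.14) had the lowest values of the core. Prosalpha3, Prosbeta3 and Prosbeta7 lay between 0.09 and 0.10. In all, 9 of the 12 core changes were above 0, with a median of 0.11.

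In the base of the regulatory particle, 1 ATPase gene rose and both scaffold genes fell. The share called was 25% of the 4 ATPases, close to the 24.1% of all tested genes. It was 66.7% of Rpn1, Rpn2 and Rpn13, but over 3 genes only. Rpt2, 1 of the 4 ATPases measured, was at 9.84, 10.20 and 10.06 in bam and at 10.50, 10.59 and 10.53 in stwl bam. Its bam arrays were more spread than its stwl bam arrays, and the genotypes did not overlap. It rose by 0.51 ± 0.10 (SE), the largest rise among the general subunits, with a limma adjusted p of 0.00949. Without pooling of variance its adjusted p was 0.0641. Rpt3 and Rpt4 were at 0.10 and 0.15 and overlapped between genotypes. Rpt5 was at 11.33, 11.30 and 11.36 in bam and at 10.93, 11.17 and 11.13 in stwl bam. That change of -0.25 did not overlap and missed the threshold, with a limma adjusted p of 0.0533.

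Rpn2, the scaffold that holds the ubiquitin receptor Rpn13, had the largest change of the general subunits. Its levels were 11.54, 11.61 and 11.52 in bam and 10.95, 10.80 and 10.67 in stwl bam. All stwl bam arrays were below all bam arrays, by more than the spread of either genotype. Its mean went from 11.56 ± 0.05 to 10.80 ± 0.14 (SD, n = 3). The change of -0.75 ± 0.09 (SE) had a limma adjusted p of 0.000844. It stayed past the threshold under each of the 23 alternatives run, with changes from -0.84 to -0.67.

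Rpn1, the scaffold that binds ubiquitin shuttle proteins, was at 10.69, 10.76 and 10.79 in bam and at 10.41, 10.45 and 10.38 in stwl bam. It fell by 0.33 ± 0.07 (SE, limma adjusted p = 0.0126), and with intensities as deposited the adjusted p was 0.120. Rpn13 was at 10.07, 10.34 and 10.19 in bam and at 10.46, 10.38 and 10.51 in stwl bam. Unlike its scaffold Rpn2, it was higher on all stwl bam arrays, at 0.25 ± 0.09, but it did not pass (limma adjusted p = 0.0824).

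In the lid, 2 of the 7 members by symbol fell and 5 did not pass in limma, with 5 of the 7 at an unadjusted p under 0.05. The share called was 28.6%, near the 24.1% of all tested genes. Sem1, whose symbol is outside the member rule, is not among the 7 and was listed apart. It was at -0.18 and did not pass (limma adjusted p = 0.0802). For the unadjusted counts, here and in the other groups, no share of all tested genes was taken. Rpn5, a lid scaffold subunit, was at 12.01, 11.92 and 12.003 in bam and at 11.53, 11.73 and 11.66 in stwl bam. It fell by 0.34 ± 0.07 (SE, limma adjusted p = 0.0123), and the call was lost without bam replicate 1 (0.0527). The Rpn5 call was also lost with intensities as deposited (limma adjusted p = 0.221), without an intensity trend (0.0736) and with replicates 2 and 3 only (0.0734). Rpn6, which clamps the lid to the core particle, was at 11.69, 11.64 and 11.75 in bam and at 11.28, 11.51 and 11.47 in stwl bam. It fell by 0.27 ± 0.08 (limma adjusted p = 0.0379). That call was lost without any single array except stwl bam replicate 2 (0.0692 to 0.109), and with intensities as deposited the change was -0.16.

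The remaining lid subunits included genes on the other side of 0. Rpn7 was at 10.14, 10.23 and 10.14 in bam and at 10.32, 10.65 and 10.48 in stwl bam, a change of 0.31 ± 0.10 (SE) with a limma adjusted p of 0.0513. Rpn8 is the partner of Rpn11, the subunit that cuts ubiquitin off substrates. Rpn8 was at 0.28 and Rpn11 at -0.21, with limma adjusted p of 0.055 and 0.0892, and neither overlapped between genotypes. Rpn3 and Rpn12 were at -0.03 and -0.01 and overlapped. The lid as a group held members on both sides, with a range from -0.34 to 0.31 and a median of -0.03.

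**Figure D2:**
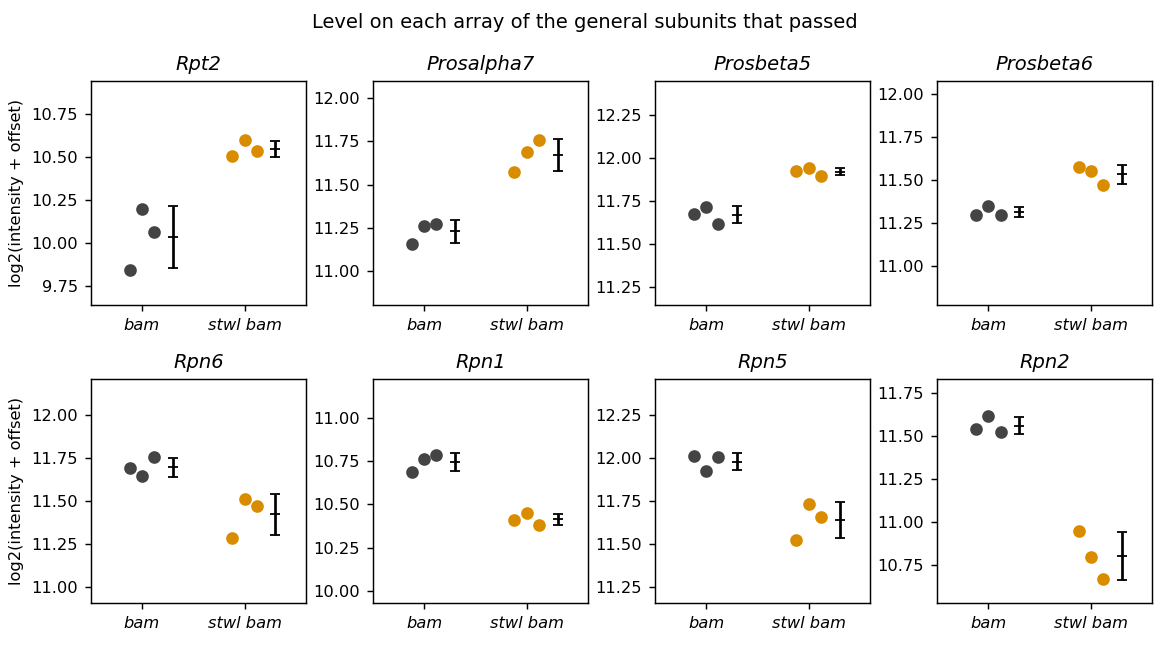
Level on each of the 6 arrays, as log2 of intensity plus offset on the vertical axis, for the 8 general subunits that passed in limma, with the mean and SD (n = 3) beside the points. Each panel spans the same range of log2 units. The genotypes do not overlap in any panel, and Rpn2 shows the widest gap.

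The members of a subcomplex did not all lie on the same side of 0. Each gene's mean over the 6 arrays was subtracted, and the median deviation of a subcomplex was taken on each array. For Rpn1, Rpn2 and Rpn13 this median was the Rpn1 value on each array, so it describes that gene alone. It was 0.11 to 0.21 on the bam arrays and -0.20 to -0.13 on the stwl bam arrays. For the 6 beta ring genes it was -0.10 to -0.03 in bam and -0.001 to 0.13 in stwl bam. The 6 alpha ring genes overlapped, at -0.13 to 0.003 in bam and -0.03 to 0.14 in stwl bam. The 4 ATPases were at -0.15 to -0.018 in bam and -0.005 to 0.16 in stwl bam. For the 7 lid genes the genotypes overlapped, at 0.00 to 0.08 and -0.12 to 0.03. Among Rpn1, Rpn2 and Rpn13, the first and second fell while Rpn13 was above 0. The SD of the changes was 0.50 across these 3 genes, 0.31 across the ATPases, 0.26 across the lid, 0.23 across the alpha ring and 0.10 across the beta ring. It was 0.28 across all 26, beside 0.58 across all tested genes, many of which are dimmer.

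The direction of the calls went with gene length, measured with introns in the RefSeq table. The 4 lower genes were 2077 to 3732 bases long and the 4 higher ones 1019 to 1686 bases. Of the 5 longest general genes, 4 were the lower ones. The other was Rpn8, the longest at 4500 bases, which lay on the other side at 0.28 and did not pass. Across the 26 genes the correlation of change with length was -0.33 (Spearman) and -0.43 (Pearson, log10 length). Across 8725 tested genes with a length it was -0.26 and -0.20. These are descriptions across genes, which are not independent replicates and share the same arrays. The part of RNA quality in this pattern was not tested.

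**Figure D3:**
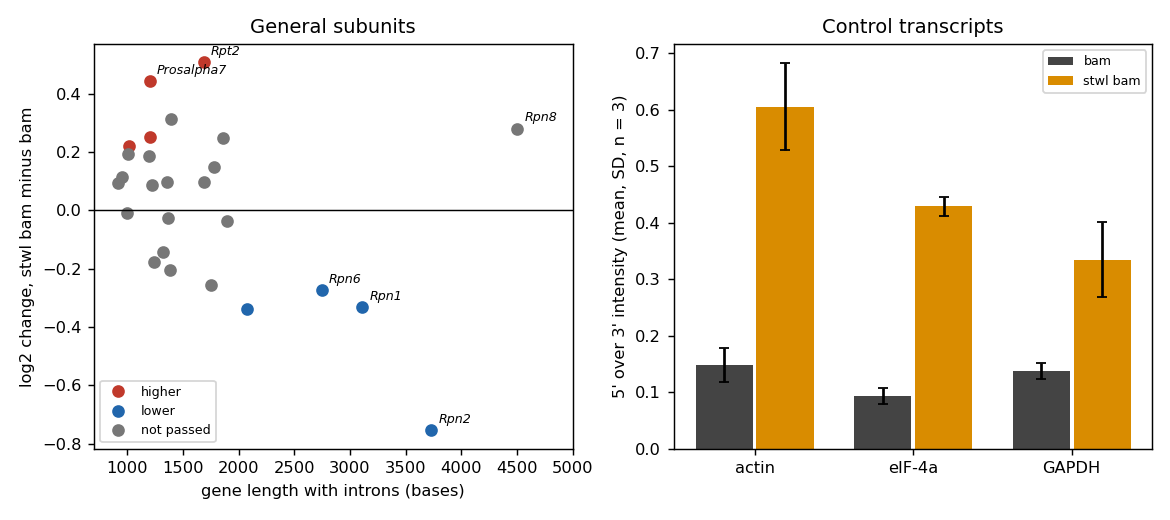
Left, change of each general subunit (log2, stwl bam minus bam) against gene length with introns in bases, coloured by call. Right, ratio of 5' to 3' intensity of the 3 control transcripts, with bars at the mean and lines for the SD (n = 3 arrays per genotype). The 4 lower subunits are longer than the 4 higher ones, and the ratios are higher in stwl bam for each control.

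Many paralogues were dim or below background in both genotypes. Of the 14, 6 were below background on all 6 arrays, 2 were above it on 1 array, 4 on 2 to 5 arrays and 2 on all 6. For comparison, 50.8% to 64.5% of all non-control probe sets were above background on a given array. The 6 undetected genes were Prosalpha3T, Prosalpha6T, Prosbeta4R1, Prosbeta4R2, Prosbeta5R1 and Prosbeta5R2. Prosalpha3T and Prosalpha6T are testis subunits of the alpha ring, and Prosalpha6T is needed for male fertility. Prosalpha3T had intensities of 17.1, 24.8 and 13 in bam and 7.0, 9.8 and 11.4 in stwl bam. Prosalpha4T1 and Prosalpha4T2 were above background only in stwl bam replicate 3, at 32.6 and 37.6, where the background was 28.5. These levels near or under background give no direction. The 28 testis spermatocyte and spermatid markers with a probe set were similar: 12 were below background on all 6 arrays, among them the spermatid genes dj and Mst87F and the meiotic arrest gene sa. Their summed intensity was 928.5 to 1190 in bam and 1099 to 1357 in stwl bam. Of the 28, 5 were above background on all 6 arrays. Of 14 tested, topi, a regulator of spermatocyte genes, fell and 13 did not pass in limma, with 5 of the 14 at an unadjusted p under 0.05. Besides topi these were tomb, can and bol, which were higher, and mia, which was lower, each without overlap between genotypes. Among the higher ones, can was below background on every bam array and bol on 2. Of the 14 changes 8 were above 0 and 6 below, with a median of 0.19. The share called was 7.1%, beside 24.1% of all tested genes.

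Only 5 paralogues passed the filter on dim probe sets, so the counts for paralogues do not cover the other 9. Of the 5, 1 rose, 1 fell and 3 did not pass, a share of 40% called beside 24.1% of all tested genes, but over 5 genes only. Rpt4R, a copy of the ATPase gene Rpt4, rose. Its deposited intensities were 16, 18.7 and 25.8 in bam and 51.7, 67.7 and 52.3 in stwl bam, and 2 of the 3 bam arrays were below background. On the log2 scale it was at 4.75, 4.51 and 5.37 in bam and at 5.89, 6.14 and 5.75 in stwl bam. All stwl bam arrays were above all bam arrays. The rise was 1.05 ± 0.30 (SE), or 2.07-fold, with a limma adjusted p of 0.0386, and it was 0.65 with values below background set to background. Rpt4R passed the filter through 3 stwl bam arrays and 1 bam array, so its call is tied to the genotype in which it is high. The call was lost without any single array except bam replicate 3 (limma adjusted p from 0.0645 to 0.117). Its general counterpart Rpt4 was at 0.15 and did not pass. The difference between the pair was not tested.

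Prosbeta2, the trypsin-like subunit, has 2 paralogues, of which 1 fell and 1 did not pass. Prosbeta2R2 was above background on all arrays, with intensities of 84.7, 85.9 and 68.4 in bam and 53.5, 56.1 and 52.6 in stwl bam. On the log2 scale it was at 6.76, 6.48 and 6.39 in bam and at 5.93, 5.88 and 5.76 in stwl bam, without overlap. It fell by 0.69 ± 0.20 (SE, limma adjusted p = 0.039). The call was lost without any single array except stwl bam replicate 1 (0.0577 to 0.153), and with intensities as deposited (0.188). As a multiple of each array's own background it was 2.22 to 3.79 in bam and 1.84 to 3.97 in stwl bam, which overlap. Prosbeta2R1 had intensities of 30.2, 44.5 and 3.5 in bam and 44.8, 50.6 and 60.9 in stwl bam. The lowest of these, bam replicate 3, is the only array below background. Its change of 0.92 ± 0.48 did not pass (limma adjusted p = 0.204), and without bam replicate 3 it was 0.32.

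Rpt3R, the brightest paralogue, was measured at 436.5, 522.1 and 533.7 in bam and at 392.1, 403.3 and 471.3 in stwl bam, between 13.45 and 29.1 times the background of its array. Its log2 levels were 8.92, 9.01 and 9.02 in bam and 8.62, 8.67 and 8.91 in stwl bam. The genotypes did not overlap, but the change of -0.25 ± 0.11 (SE) did not pass in limma (adjusted p = 0.144). Its general counterpart Rpt3 was at 0.10. Rpn12R, a copy of a lid gene, was above background on 1 bam and 2 stwl bam arrays and was at 0.05, with an interval from -0.60 to 0.70. Rpn13R had intensities of 14.7, 13.2 and 13.5 in bam and 14.2, 45.9 and 25.8 in stwl bam. It was below background on all bam arrays and on 1 stwl bam array, was not tested, and no bound above 1-fold could be given.

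**Figure D4:**
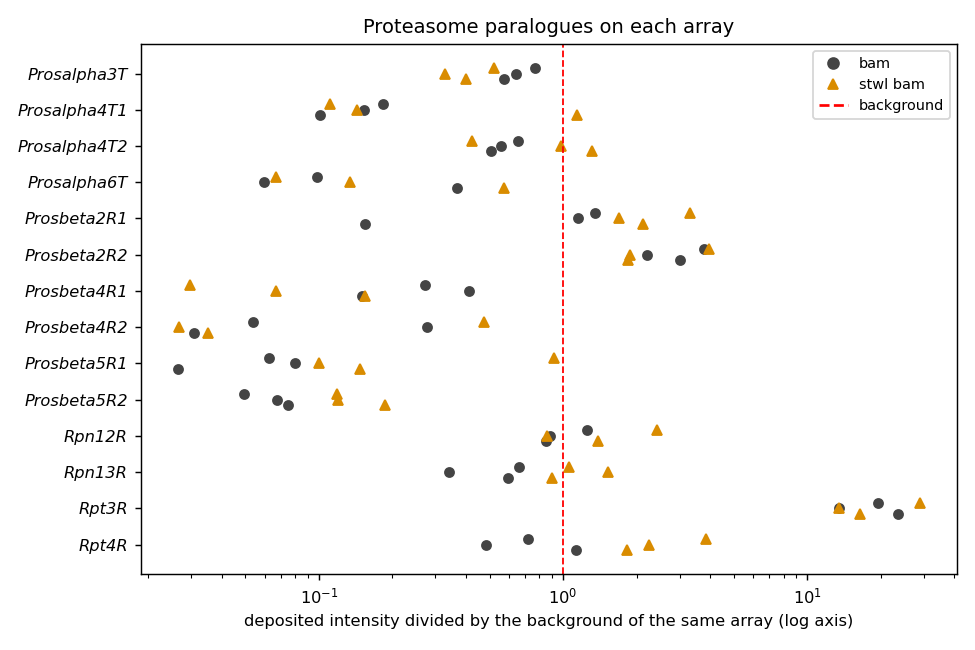
Deposited intensity of the 14 paralogues on each of the 6 arrays, divided by the background of the same array, on a log axis, with the dashed line at background. Circles are bam and triangles are stwl bam. Rpt3R and Prosbeta2R2 are right of the line on all arrays, Rpt4R is right of it on all stwl bam arrays and 1 bam array, and 6 paralogues are left of it throughout.

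Genes that act with the proteasome were listed apart, 58 in all, of which 49 had a probe set of their own. Of 48 tested, 9 rose, 8 fell and 31 did not pass in limma, or 35.4%, beside 24.1% of all tested genes. Among 9 genes listed as regulators and assembly factors, with Sem1 included, 2 rose and 2 fell. PI31, which encodes a regulator that binds the proteasome, was at 8.31, 8.45 and 8.28 in bam and at 9.12, 9.14 and 9.27 in stwl bam. It rose by 0.83 ± 0.10 (SE, limma adjusted p = 0.00138). ntc, which encodes the F-box partner of PI31 in the male germline, was at 7.30, 7.41 and 7.32 in bam and at 6.44, 6.60 and 6.66 in stwl bam. It fell by 0.78 ± 0.15 (limma adjusted p = 0.00854). Both genes changed, in opposite directions and each without overlap between genotypes. rngo, a ubiquitin receptor gene, fell by 0.37, a call that was lost with intensities as deposited and on leaving out replicate 1 or 2 of bam or replicate 2 or 3 of stwl bam. The proteasome maturation factor gene Pomp was at 0.07 and did not pass.

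On the supply of ubiquitin and the removal of chains, 1 of 4 ubiquitin genes fell. The polyubiquitin gene Ubi-p63E was at 12.41, 12.45 and 12.22 in bam and at 11.94, 11.92 and 11.67 in stwl bam. It fell by 0.52 ± 0.09 (SE, limma adjusted p = 0.0066), a call that was lost with intensities as deposited and without pooling of variance. Of 3 tested deubiquitinase genes 1 rose. It was Uch-L5, whose product docks on Rpn13, with a change of 0.42 ± 0.11 (limma adjusted p = 0.032). That call was lost without any single array except stwl bam replicate 2. Among 6 genes of the unfoldase p97 and its adaptors, p47 rose by 0.30 and TER94, the p97 gene, fell by 0.23. The TER94 call was lost under 13 of the 23 alternatives, among them leaving out any single array except bam replicate 2. The p47 call was lost on leaving out replicate 1 or 2 of bam or replicate 3 of stwl bam. Of the 9 genes of the COP9 signalosome, a complex related to the lid, only CSN8 passed, at 0.34. Its call was lost on leaving out replicate 1 or 3 of bam or replicate 2 or 3 of stwl bam, and without pooling of variance.

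Enzymes that attach ubiquitin were listed as conjugating enzymes and cullin ligases. Of 6 conjugating enzyme genes 3 rose and 1 fell. vih, which encodes the enzyme that serves the anaphase-promoting complex, was at 9.05, 8.70 and 9.01 in bam and at 9.91, 9.82 and 9.76 in stwl bam, and it rose by 0.91 ± 0.12 (SE, limma adjusted p = 0.00148). Ubc2 rose by 0.47, and Ubc7, an enzyme of endoplasmic reticulum quality control, fell by 0.48. The Ubc7 call was lost on leaving out replicate 1 or 3 of bam or replicate 3 of stwl bam. Of 11 cullin ligase genes 1 rose and 3 fell. slmb, the substrate receptor of a cullin ligase, had the largest change of the 48: it was at 10.26, 10.18 and 9.83 in bam and at 8.49, 8.74 and 8.55 in stwl bam, and it fell by 1.497 ± 0.133 (limma adjusted p = 0.000316). Cul2 fell by 0.60 and the RING subunit gene Roc2 rose by 0.49.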

How the data were processed

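Each of the 6 deposited files holds the authors' intensity on a linear scale for every probe set of an array; the submitters' processing notes name GCOS, without settings. Trimmed means (2% to 98%) ran from 219.6 on bam replicate 1 to 249.8. Non-control probe sets were therefore quantile normalized, and log2 was taken after adding 7.9, the 25th percentile of all intensities, which understates changes of dim genes. Of 18769 non-control probe sets, 11477 reached the 40th percentile of their array on at least 3 arrays. The platform annotation gives a single gene for 13647 probe sets, several genes for 402 and no gene for 4720; RefSeq symbols were found for 13544 of the first. The probe set with the highest mean stood for a gene. The two-sided test was limma 3.58.1 (R 4.3.3; lmFit, then eBayes with trend), called at 0.05 after Benjamini-Hochberg adjustment across every probe set kept. The fit was tested on simulated data. Precision is limited by having 3 arrays a genotype. Members and lists were chosen with earlier results of these data known. Members that passed, and paralogues above background on at least 2 arrays, are given by array. From each list of related genes up to 3 passing genes with the largest change are named; Pomp was added after its value was seen. Marker lists covered germ, testis, muscle, fat body, haemocyte and follicle cells. The alternatives were other normalizations, offsets, filters, priors, weights, blocks, a test without pooling, other probe set rules, a background floor and leaving out each array. Sequences of the members were not used here.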

Additional observations from a re-analysis of the deposited data

How the results depend on the processing

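Of the 10 members called, Prosalpha7 and Rpn2 kept their call under all 23 alternatives, 8 lost it under at least 1, and none changed sign. Over the alternatives the general subunits called ranged from 2 to 8 higher and 1 to 5 lower, against 4 and 4. The counts were 2 higher and 1 lower with intensities as deposited or without an intensity trend, 7 higher with the filter at the 60th percentile, 8 higher with array weights, and 2 lower without pooling of variance. With replicates 2 and 3 only, an alternative chosen after seeing the data, they were 2 and 2. Leaving out single arrays gave 2 to 6 higher and 2 to 5 lower. The 1 higher and 1 lower paralogue were each 0 with no filter, with the replicate block and with replicates 2 and 3 only. The lower one was 0 with deposited, median-centred or rescaled intensities, and the higher one 0 without pooling and with a block for replicate 1 against 2 and 3, also added after seeing the data. With the filter at the 60th percentile both counts were 0 because neither gene was tested, 1 paralogue being left. Leaving out single arrays gave 0 to 1 for each. In limma 2 of the 5 tested paralogues had an unadjusted p under 0.05. All genes called fell from 2116 to 927 without pooling and 1211 with replicates 2 and 3, and were 1071 to 2208 without single arrays. Deviations of same-numbered arrays from their genotype means had correlations of -0.05, -0.03 and 0.00. Such deviations sum to 0 within a genotype, so these values cannot show whether same-numbered arrays were handled together. With the replicate block 4 general subunits were higher and 3 lower. Dim signal limits the paralogues, of which 9 were not tested.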
